A study of Mus musculus with 79 samples.

Results

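Loss of the clock protein PER2 in skeletal muscle was examined at zeitgeber time (ZT, hours after lights on) 4, in the middle of the light phase. The comparison holds all 12952 genes of the authors' deposited ZT4 table, which sets 4 libraries of PER2 MKO muscle against 3 libraries of PER2 CTRL muscle. The same 12952 genes stand in 5 further tables, at ZT0, ZT8, ZT12, ZT16 and ZT20, and the series as a whole, with its second knockout, names 14963 genes. MKO mice lack the gene in muscle only, by the series' design text, and the genotype of CTRL mice is given as WT. Each ZT had its own mice, 4 MKO and 3 CTRL at 5 of the ZT and 4 CTRL at ZT20, so the 6 comparisons share no library. The second knockout, of the nuclear receptor RORα, was measured at the same ZT with 3 RORA MKO and 3 RORA CTRL libraries at each. The promoter behind the recombinase, the muscle taken, and the age and sex of the mice are unknown here.

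PER2 is a core repressor of the circadian clock. The activators CLOCK and BMAL1 (encoded by Arntl) bind E-box elements and drive transcription of the Per and Cry genes, whose proteins return to the nucleus and hold CLOCK and BMAL1 in check. A second loop runs through the RORs, which activate Arntl, and REV-ERBα and REV-ERBβ (Nr1d1 and Nr1d2), which repress it. In muscle this oscillator times transcription of genes for glucose and lipid use, protein turnover and contraction.

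No value of a single library was used. The authors' deposited tables give, for each gene and ZT, a log2 fold change with its likelihood ratio score, its p-value and adjusted p, and the gene's mean log2 CPM, a level scaled to library size. Neither the headers nor the labels state which genotype is over which, so a value is called positive or negative here, and no genotype is called higher. Unless another source is named, each log2 fold change and adjusted p given for PER2 is from these deposited tables, and a gene is called where the deposited adjusted p is under 0.05. The tables hold no error, and the value after ± is an error derived here, the absolute fold change divided by the square root of its score. Library depth is unknown. The p-values measure spread between mice of this series only. Whether the authors pooled that spread over the ZT is not stated in the sources used here. The mean log2 CPM is identical at all 6 ZT and the derived errors are alike, as a joint fit of all libraries would give. The errors derived here would carry any such pooling, so they are not read as separate measures of spread at each ZT. Muscle is bulk tissue, in which fewer cells of a type and less RNA per cell cannot be told apart.

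At ZT4 the deposited table called 1586 of 12952 genes (12.2%), of which 711 were positive (5.49%) and 875 negative (6.76%). The other ZT had 350, 230, 432, 105 and 197 calls at ZT0, ZT8, ZT12, ZT16 and ZT20. The calls at ZT4 were small, with a median size of 0.45 (quartiles 0.34 and 0.63), and 134 were of size 1 or more. Median derived errors were alike at all 6 ZT, from 0.12 at ZT20 to 0.13 at ZT4 among genes at 1 CPM or more, while the interquartile range of the fold changes of the same genes was 0.36 at ZT4 and between 0.16 and 0.28 at the other ZT. The larger number of calls at ZT4 thus went with a wider spread of fold changes. The derived errors cannot say whether spread between the ZT4 libraries had a part in it. If spread was pooled over the ZT, which is not stated, group size largely sets these errors. They are smallest at ZT20, which has 4 CTRL libraries. Alike errors therefore do not show that the libraries varied alike at each ZT. The share of genes called was 6.78% below a mean log2 CPM of 0, rose to 20.6% at 6 to 8 and was 18.1% at 8 or more.

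Most ZT4 calls were made at ZT4 alone. Of the 1586 genes, 1195 (75.3%) were called at none of the other ZT, 213 at 1 of them and 44 at all 5, the last with a single sign throughout. The other ZT each called between 0.81% (ZT16) and 3.34% (ZT12) of all genes. Most genes of any kind were therefore called at none of them, and the 75.3% is no measure of how particular the calls are to ZT4. The nearest ZT in its calls was ZT12, with 291 genes called at both, which is 18.3% of the ZT4 calls and 67.4% of those at ZT12. All 291 had the same sign. Of all ZT4 calls, 96.5% had the same sign at ZT12, against 64.3% at ZT0, 82.6% at ZT8, 71.8% at ZT16 and 84.0% at ZT20. The same shares over all genes are not given here. Across the 12318 genes at 1 CPM or more, Pearson's r of the ZT4 fold changes was 0.85 with ZT12 and between 0.61 and 0.72 with the other 4 ZT, where genes are not independent replicates. A trend with transcript length and GC content, described with the length bins, was strongest at ZT4 and ZT12. With it removed, r was 0.83 with ZT12 and between 0.68 and 0.78 with the others, among genes with a known length. A gene called at ZT4 alone is not shown to differ from the other ZT: of the 1195, 532 had an unadjusted p under 0.05 with the same sign at ZT12, and 486 had an unadjusted p of 0.05 or more at all 5 other ZT.

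**Figure D1:**
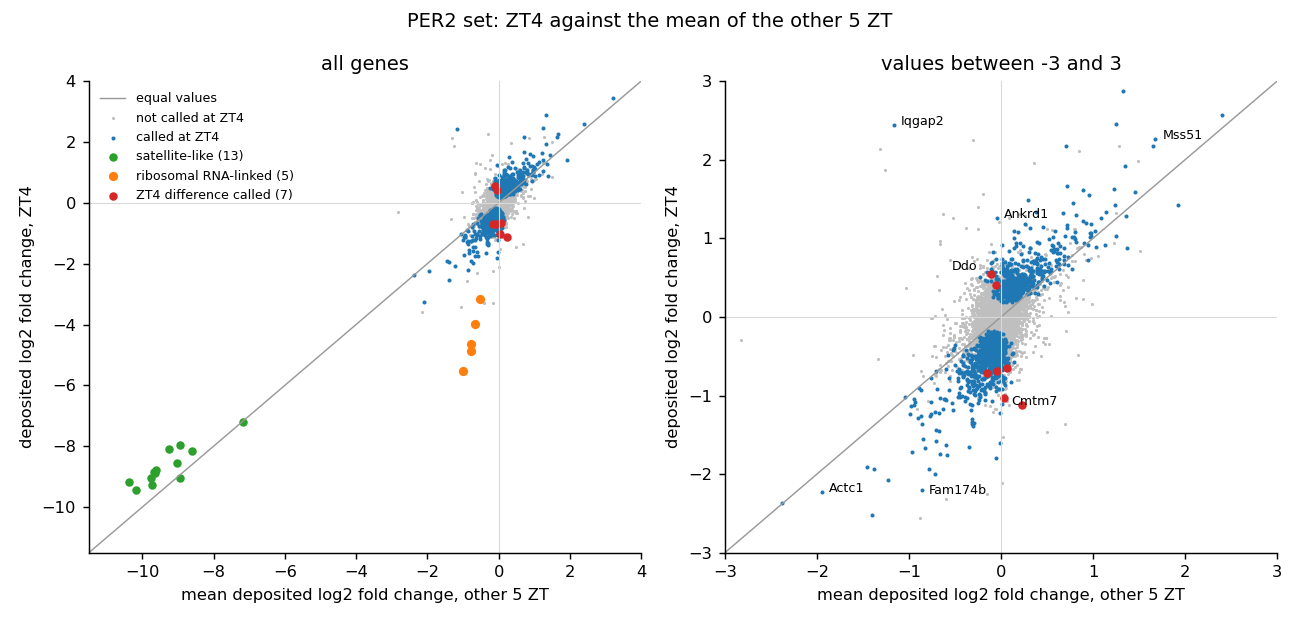
Deposited log2 fold change at ZT4 (vertical axis) against the mean of the other 5 ZT (horizontal axis), 1 point per gene, over the full range on the left and between -3 and 3 on the right, with the line of equal values. The 7 genes whose ZT4 effect was called as different are in red, the 13 satellite-like genes lie near the line at the lower left, and the 5 ribosomal RNA-linked genes lie far under it.

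What was particular to ZT4 was tested gene by gene as the ZT4 fold change minus the plain mean of the other 5, with the derived errors, a two-sided normal p and Benjamini-Hochberg adjustment over all 12952 genes. This called 7 genes (0.054%), 2 positive (0.0154%) and 5 negative (0.0386%), and 2135 genes had an unadjusted p under 0.05. In all 7 the ZT4 value lay beyond those of the other 5 ZT, and all 7 were also called at ZT4 by the authors' deposited table. Both largely follow from how the genes were picked, since the same ZT4 value and score enter the test, and add no support. Ddo, D-aspartate oxidase, which degrades acidic D-amino acids, had a deposited fold change of 0.55 ± 0.14 at ZT4 and of -0.16, -0.11, -0.10, -0.13 and -0.01 at ZT0, ZT8, ZT12, ZT16 and ZT20. It was positive at ZT4 and negative at each other ZT, and the difference was 0.65 ± 0.15 (adjusted p 0.0483). Ccs, the copper chaperone that loads superoxide dismutase, stood at -0.71 ± 0.11 at ZT4 and at -0.01, -0.18, -0.43, -0.00 and -0.12 elsewhere, a difference of -0.56 ± 0.12 (adjusted p 0.0352). It is the only one of the 7 that was also called at another ZT.

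The other genes named by the rule had the same adjusted p of 0.0352 for the difference. Cmtm7, a membrane protein of the MARVEL family, stood at -1.03 ± 0.22 at ZT4 and between -0.31 and 0.29 at the other ZT, a difference of -1.07 ± 0.24. Tbc1d7, a subunit of the TSC complex that restrains mTORC1, stood at -0.65 ± 0.15 at ZT4 and between -0.17 and 0.33 elsewhere, a difference of -0.72 ± 0.16. Tmem9, a lysosomal membrane protein, stood at -0.69 ± 0.14 and between -0.26 and 0.15 elsewhere, a difference of -0.65 ± 0.15. The remaining pair falls outside the naming rule and was singled out after its values were seen. It consists of AW549877 (0.41 ± 0.10 at ZT4, between -0.25 and 0.05 elsewhere) and Slc37a1, a sugar-phosphate transporter below 1 CPM (-1.12 ± 0.28 at ZT4, between -0.46 and 0.72 elsewhere). The call of all 5 genes named by the rule was lost when ZT0 or ZT16 was left out of the mean, and no gene was then called (1621 and 1891 at an unadjusted p under 0.05). Without ZT20 only Tbc1d7 was called. Ddo alone of the 5 lost its call with an inverse-variance weighted mean (adjusted p 0.0516) and among genes at 1 CPM or more (adjusted p 0.0552). With the spread between the other ZT as error, none of the 5 was called by limma (adjusted p 0.329 for each).

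Several larger shifts did not pass the test of the difference. Iqgap2, a scaffold protein of the cytoskeleton, was positive at ZT4 (2.44 ± 0.82, adjusted p 0.0329) and negative at ZT0, ZT8, ZT12 and ZT16 (-1.61, -1.40, -2.04 and -1.13), with 0.37 at ZT20. Its difference was 3.60 and its adjusted p 0.0839. Ankrd1, a stress-responsive ankyrin repeat protein of the sarcomere, had 1.26 ± 0.29 at ZT4 and between -0.31 and 0.20 elsewhere, and the adjusted p of its difference was 0.0829. Eda2r, a receptor for ectodysplasin A2 linked to muscle wasting, had 1.09 ± 0.26 at ZT4 and at most 0.33 elsewhere (adjusted p 0.154 for the difference). Gpx1, the cytosolic glutathione peroxidase, had -0.77 ± 0.20 at ZT4 and between -0.31 and 0.26 elsewhere (adjusted p 0.12).

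**Figure D2:**
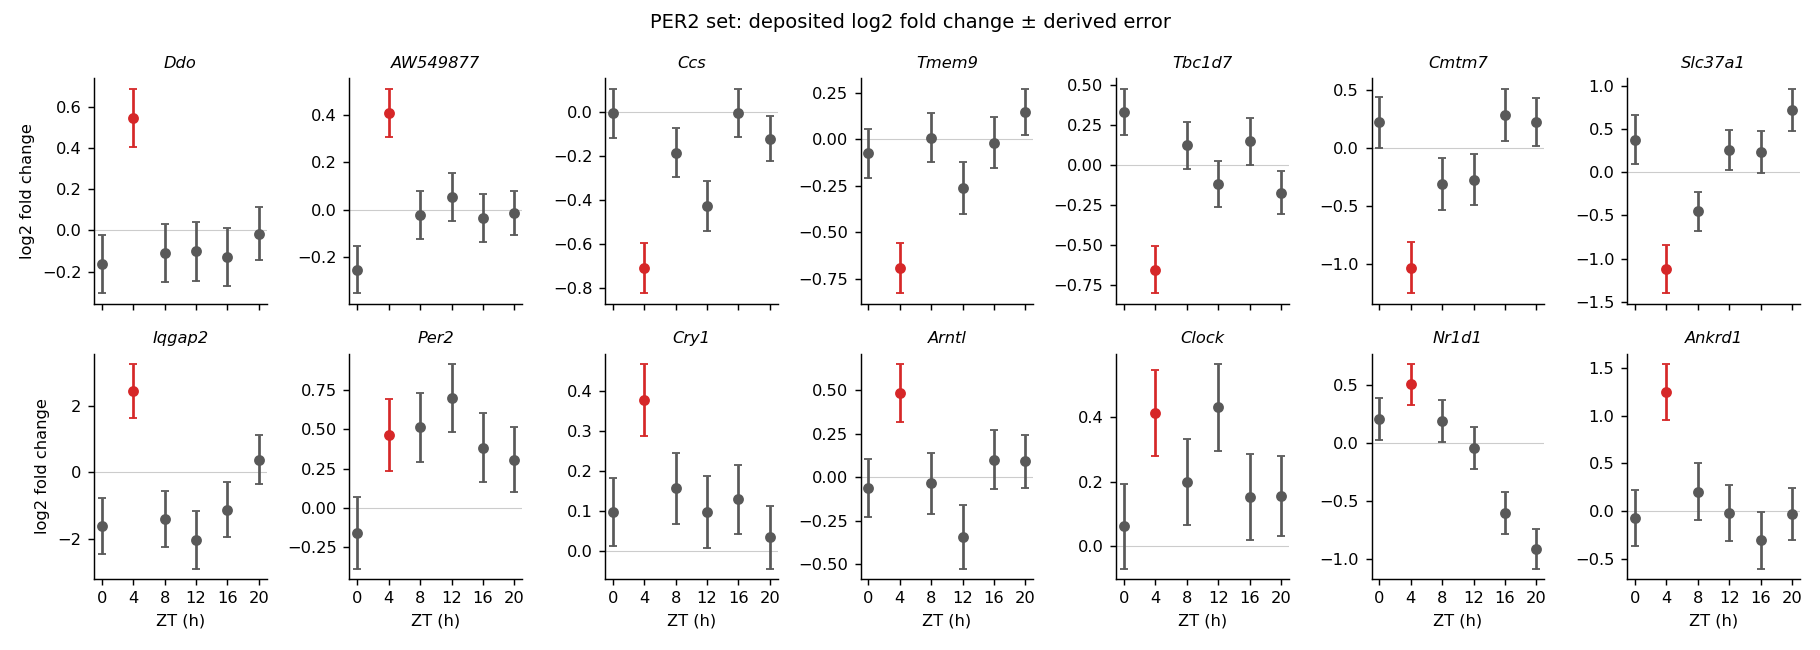
Deposited log2 fold change (vertical axis, own scale in each panel) at each ZT (horizontal axis, h) for the 7 genes whose ZT4 effect differed, for Per2 and 4 clock genes called at ZT4, and for Iqgap2 and Ankrd1. Points are the deposited values, bars the derived error on either side, and ZT4 is in red. Ddo stands at 0.55 at ZT4 and under 0 at every other ZT, while Per2 at 0.46 lies within its values of the other ZT.

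The targeted gene, Per2, was not called at ZT4. Its deposited fold change was 0.46 ± 0.23 (adjusted p 0.153), and the values from ZT0 through ZT8, ZT12, ZT16 and ZT20 were -0.16, 0.51, 0.70, 0.38 and 0.31. It was called at ZT12 alone. The ZT4 value lies inside the range of the others. A value for the whole gene also counts transcripts that lack a deleted exon, so it does not settle which genotype is over which.

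The clock genes Cry1, Clock, Arntl and Nr1d1 had positive calls at ZT4. Cry1, the repressor that partners the PER proteins, had the smallest adjusted p of these, at 0.38 ± 0.09 (adjusted p 0.00173), and stood between 0.03 and 0.16 at the other 5 ZT, at none of which it was called. Clock stood at 0.41 ± 0.13 (adjusted p 0.0247), close to its 0.43 at ZT12, but at 0.15 (adjusted p 0.62) once the trend with transcript length and GC content, described with the length bins, was removed. Arntl, which encodes BMAL1, stood at 0.49 ± 0.17 (adjusted p 0.0366) and at -0.34 at ZT12, and its adjusted p was 0.0722 with that trend removed. None of these 3 had an adjusted p under 0.05 for the difference from the other ZT, which was 0.2 for Cry1 and 0.19 for Arntl.

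Nr1d1 was the only gene of the 1586 that was called with the other sign at another ZT. Its deposited fold change was 0.50 ± 0.18 at ZT4 (adjusted p 0.044), and from ZT0 through ZT8, ZT12, ZT16 and ZT20 it was 0.20, 0.19, -0.05, -0.60 and -0.91, the last a call. The values go down in order from ZT4 to ZT20. The difference of ZT4 from the other 5 was 0.73 (adjusted p 0.108). Its paralogue Nr1d2 stood at 0.33 at ZT4 and -0.17 at ZT20 and was called at neither. These output and period genes were not called at ZT4: Dbp stood at -0.15, Tef at -0.22, Hlf at 0.31, Per1 at -0.09 and Per3 at -0.22.

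E-box letters were searched in the 250 bases before the RefSeq start of these clock genes, since these are the elements that CLOCK and BMAL1 bind and PER2 acts on. The motif CACGTG is its own reverse complement, and CACGTT was searched on both strands (AACGTG on the other). The matches in the windows printed here do not overlap. Of 32851 RefSeq windows of the same length, 6.02% hold CACGTG and 3.85% hold CACGTT. Cry1 holds 1 of each. Nr1d1 holds CACGTT once and no CACGTG. The windows of Clock (3 starts) and Arntl (2 starts) hold neither, and Per2 was not matched in the RefSeq table. A match describes these letters only. The windows of Cry1 (chr10:85185055-85185304, minus strand) and Nr1d1 (chr11:98775378-98775627, minus strand), on build GRCm38.p6, are written 5′ to 3′ up to the base before the start, with the motifs in capitals.
Cry1: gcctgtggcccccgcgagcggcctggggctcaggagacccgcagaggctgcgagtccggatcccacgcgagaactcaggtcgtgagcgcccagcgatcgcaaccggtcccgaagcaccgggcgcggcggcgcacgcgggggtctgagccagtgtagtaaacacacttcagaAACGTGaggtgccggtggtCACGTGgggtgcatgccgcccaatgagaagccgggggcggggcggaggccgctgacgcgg
Nr1d1: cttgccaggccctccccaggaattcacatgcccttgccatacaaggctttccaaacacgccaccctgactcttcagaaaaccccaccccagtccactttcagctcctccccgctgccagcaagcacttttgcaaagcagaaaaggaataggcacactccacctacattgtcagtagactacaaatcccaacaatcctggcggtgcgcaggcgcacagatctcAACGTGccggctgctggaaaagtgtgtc

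The ZT4 fold changes followed transcript length. Across the 11739 genes at 1 CPM or more with a transcript in the GENCODE M21 annotation, Spearman's rho between transcript length and the deposited fold change came to 0.54 at ZT4 and 0.46 at ZT12, against -0.25 at ZT0 and between -0.06 and 0.09 at ZT8, ZT16 and ZT20. For GC content, rho came to -0.37 and -0.46 at these ZT. A smooth trend of both accounted for 30.1% of the variance of the fold changes at ZT4, 28.0% at ZT12 and at most 3.96% at each other ZT. Transcripts of a gene share its libraries, so these are descriptions without a test. The same measure in the RORA set at ZT4 was -0.02 for length and 0.09 for GC content.

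Genes were put into 10 bins of transcript length. In the bin with the shortest transcripts (median 948 bases) the median fold change at ZT4 was -0.32, and 19.3% of the genes had a negative call and 0.68% a positive one. In the bin with the longest (median 8266 bases) the median was 0.21, with 14.1% positive and 0.51% negative calls. The median transcript was 4909 bases long among positive calls and 1789 bases among negative calls, against 3183 for all genes at 1 CPM or more. When the trend was removed, 640 of the 12333 genes with a length were called at ZT4 (5.19%), 328 positive and 312 negative, and 471 of them were among the 1586. With the trend removed at every ZT, 395 genes were called at ZT4 alone, and 241 of the 1195 were among the 640. Of the 5 genes named by the difference test, Ddo kept its call with the trend removed (0.62, adjusted p 0.0265). It lost the call with an inverse-variance weighted mean (adjusted p 0.0516), where the others kept theirs. With the trend removed, the difference of Ccs became -0.28 (adjusted p 0.502), and Tmem9, Tbc1d7 and Cmtm7 lost the call as well (adjusted p 0.107, 0.14 and 0.225). At ZT4 itself, Clock (0.15, adjusted p 0.62), Arntl (0.47, adjusted p 0.0722), Tbc1d7, Agpat2, Gadd45a, Gpx1, Lama2, Acta1, Cldn5, Esam, Ighm, Iqgap2, Rpl13a-ps1 and AW549877 were no longer called, and Ccs (-0.40) and Dmd (0.51) were smaller but still called. Whether length, GC content or something that moves with them bears on the calls was not tested.

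**Figure D3:**
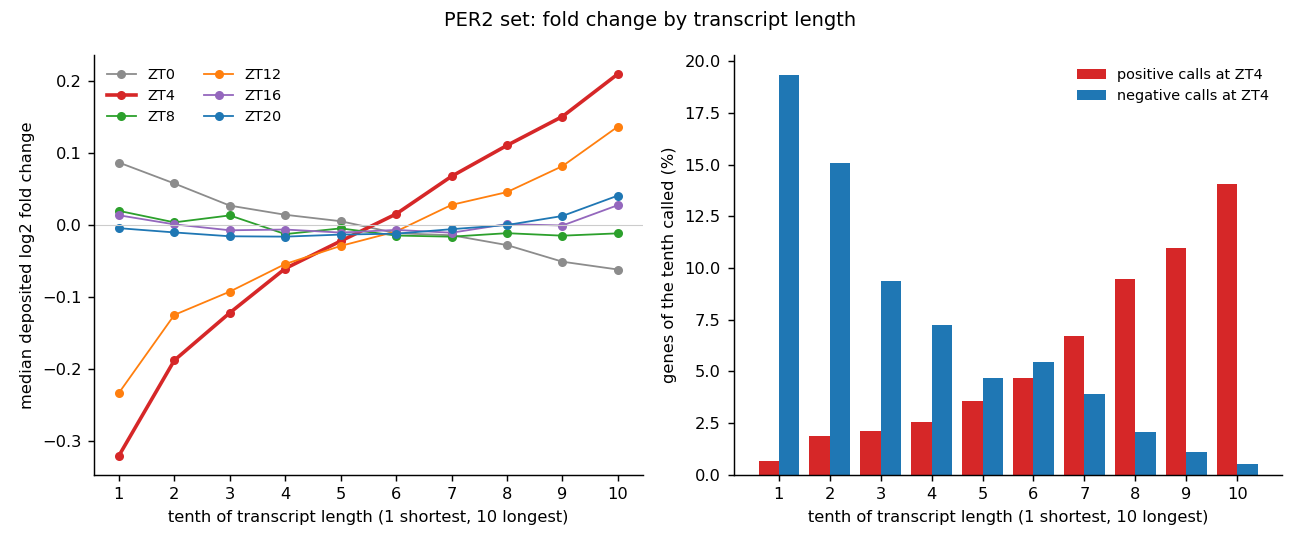
Left, median deposited log2 fold change (vertical axis) in each of 10 bins of transcript length (horizontal axis), 1 line per ZT. Right, percent of the genes of each bin with a positive (red) or negative (blue) call at ZT4. The ZT4 line runs from -0.32 in the shortest bin to 0.21 in the longest, with ZT12 closest to it, and ZT0 slopes the other way.

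The fixed lists of nuclear-encoded oxidative phosphorylation and of cytosolic ribosomal proteins had negative values in every measured gene at ZT4. Of 35 measured nuclear-encoded genes of oxidative phosphorylation, 18 had a negative call and 0 a positive one, against 6.76% and 5.49% of all genes. All 35 had a negative value, and their median was -0.39, against -0.01 over all genes. Their medians were -0.28 at ZT12, 0.15 at ZT0, and between -0.07 and -0.01 at ZT8, ZT16 and ZT20. Atp5b, the catalytic subunit of the ATP synthase, stood at -0.39 ± 0.10 (adjusted p 0.00283), Atp5g1, a subunit of its rotating ring, at -0.72 ± 0.19, and Ndufv1 of complex I at -0.32 ± 0.09. The 13 mRNAs encoded by mitochondrial DNA had 0 calls in the deposited table and a median of -0.00, and with the length and GC trend removed 2 of them had a positive call. The nuclear-encoded genes have short transcripts (median 1445 bases), and with the trend removed the median of the nuclear-encoded list was -0.19 and 1 gene was called. That gene is Atp5g1 (-0.85, adjusted p 0.000626).

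Other mitochondrial lists also had negative calls, against 6.76% of all genes. Fatty acid oxidation had 7 negative calls of 23 measured and a median of -0.29, with Slc25a20, the carnitine carrier (-0.38 ± 0.11), Eci1 (-0.52 ± 0.15) and Hadh (-0.44 ± 0.13) in front. The tricarboxylic acid cycle had 5 negative calls of 15, among them Suclg1 at -0.36 ± 0.11, and mitochondrial ribosomal proteins 6 of 24, with a median of -0.37. No gene of these 3 lists had a positive call. With the trend removed, fatty acid oxidation had 0 calls, the tricarboxylic acid cycle 1, a positive one, and mitochondrial ribosomal proteins 3 negative ones, among them Mrps5 (-0.34, adjusted p 4.7e-05).

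Cytosolic ribosomal proteins had 12 negative calls of 33 measured, against 6.76% of all genes. All 33 had a negative value, and the median was -0.42, with medians between -0.28 and 0.10 at the other ZT. Rpl10a stood at -0.53 ± 0.15 at ZT4 and at -0.01 at ZT8. Its transcripts are short (median 964 bases). With the trend removed its median was -0.13 and 0 were called. The proteasome had 6 negative calls of 26, against 6.76% of all genes, and 0 after the trend was removed. Among the 6 were the ATPase subunits Psmc3 (-0.27 ± 0.09), Psmc5 and Psmc4.

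Sugar and lipid use showed calls of both signs. In glycolysis 3 of 15 genes had a negative call, Pgam2 at -0.48 ± 0.13, Eno3 at -0.38 ± 0.13 and Pgk1 at -0.30 ± 0.10. None of the 3 was called with the trend removed (-0.12, -0.17 and -0.18), and the list had 1 positive call. Epm2a, the glycogen phosphatase laforin, was the only call among 15 glycogen genes. It was positive at 0.23 ± 0.06 (adjusted p 0.00867) and stood between -0.05 and 0.04 elsewhere. Of 15 genes of insulin signalling, 1 had a positive call, Insr, the insulin receptor (0.32 ± 0.10). Another 1 had a negative call, Grb10, an adaptor that dampens it (-0.49 ± 0.15). Counts of 1 of 15 are close to the 5.49% positive and 6.76% negative calls of all genes, so they are no result about these lists. Insr stood at 0.11 with the trend removed (adjusted p 0.656), and Grb10 kept its call. The pyruvate list, with the kinase Pdk4 at -1.13 ± 0.43 (adjusted p 0.0617) and at 1.66 at ZT0, had 0 calls of 12.

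In lipid uptake and storage, 7 of 21 genes had a negative call and 1 a positive one, against 6.76% and 5.49% of all genes. With the trend removed the list had 2 negative calls and 1 positive one. The lipid droplet coat protein Plin3 stood at -1.26 ± 0.21 (adjusted p 1.06e-06) and was negative at all 6 ZT, and Agpat2, an enzyme of triglyceride synthesis, stood at -0.82 ± 0.21. Vldlr, the very low density lipoprotein receptor, was the positive call, at 0.72 ± 0.14 (adjusted p 7.57e-05) with values of 0.15 to 0.39 elsewhere. Angptl4, an inhibitor of lipoprotein lipase, stood at -1.45 ± 0.44 at ZT4 and at -1.48 at ZT8. In the antioxidant list 9 of 23 genes had a negative call and 1 a positive one. With the trend removed it had 3 negative calls and 1 positive one. Gpx3, the plasma glutathione peroxidase, stood at -1.08 ± 0.16 (adjusted p 1.89e-08) and was called at 4 other ZT, and Prdx6 at -0.37 ± 0.10.

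Large structural proteins of muscle had more positive than negative calls. Of 25 measured, 6 had a positive call and 1 a negative one, against 5.49% and 6.76% of all genes, and the median was 0.15. Dmd, which encodes dystrophin, stood at 0.77 ± 0.13 (adjusted p 2.4e-07) and between 0.52 and 0.76 at the other ZT, all of which called it. Syne1, the nuclear envelope protein nesprin-1, stood at 0.72 ± 0.12, and Lama2, the laminin chain of the muscle basement membrane, at 0.46 ± 0.11 with at most 0.22 elsewhere. The transcripts of this list are long (median 9614 bases), and with the trend removed its median was 0.01 and 4 were called, all positive. Splicing genes had 2 positive calls of 26 and a median of 0.21, with Srsf5 at 0.38 ± 0.12, and chromatin regulators 1 of 23 and a median of 0.25, with the methyltransferase Ash1l at 0.37 ± 0.13. These counts are close to the 5.49% of all genes with a positive call. The medians were 0.07 and 0.04 with the trend removed, and 1 splicing gene and 0 chromatin regulators were called.

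Contractile and developmental genes were mostly not called. Fast sarcomere genes had 1 positive call of 15, Mylk2, the skeletal myosin light chain kinase (0.59 ± 0.15), and 1 negative call, the skeletal actin Acta1 (-0.37 ± 0.12). These counts are close to the 5.49% and 6.76% of all genes, and 0 of 13 slow sarcomere genes were called. Actc1, the cardiac actin that is also made in immature fibres, stood at -2.23 ± 0.47 and was called at 4 other ZT (-1.88 to -2.40). H19, a noncoding RNA of developing and regenerating muscle, stood at -1.74 ± 0.32 (adjusted p 7.88e-06) and between -0.30 and -1.01 elsewhere. Musk, the kinase that organises the neuromuscular junction, was positive at every ZT (1.29 ± 0.23 at ZT4).

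Among secreted muscle factors and their regulators, 4 of 16 measured had a positive call at ZT4 and 2 a negative one, against 5.49% and 6.76% of all genes. Mstn, which encodes the growth inhibitor myostatin, stood at 0.73 ± 0.14 (adjusted p 3.02e-05) at ZT4, and at 0.53, 0.31, 0.76, 0.22 and 0.44 elsewhere. Its relative Gdf11 stood at 1.13 ± 0.18 (adjusted p 2.52e-07), with 1.16 at ZT8 and 0.36 at ZT20. Fndc5, the precursor of irisin, was negative at -0.96 ± 0.18 (adjusted p 9.3e-06), with -0.72 at ZT8 and between -0.15 and -0.40 elsewhere. All 3 had the same sign at each ZT. With the trend removed 6 of the 16 were called, 4 positive and 2 negative.

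Of the amino acid genes, 2 of 24 were positive calls and 5 negative, against 5.49% and 6.76% of all genes. With the trend removed 6 were called, 2 positive and 4 negative. Slc38a2, a glutamine transporter, stood at 0.72 ± 0.16, and Bcat2, the mitochondrial branched-chain aminotransferase, at -0.67 ± 0.16. The atrophy list had 1 positive call of 20, Eda2r, close to the share of all genes, and 3 negative ones. Among the negative ones, Gadd45a stood at -0.75 ± 0.20 and the lysosomal protease Ctsl at -0.42 ± 0.11. With the trend removed 3 genes of the list were called, 2 positive and 1 negative. Antigen presentation and interferon genes had 6 negative calls of 25, against 6.76% of all genes, and a median of -0.38, with -0.36 at ZT8. The median was -0.19 with the trend removed, and 1 was called. Igtp, an interferon-inducible GTPase, stood at -0.66 ± 0.18 and between -0.56 and -0.63 at the other ZT. H2-D1 of class I stood at -0.53 ± 0.15, and H2-Ab1 of class II at -0.80 ± 0.24 with 0.31 at ZT0. No heat shock gene of 21, immediate early gene of 19 or gene of the PPAR, ERR and PGC-1 list of 15 was called at ZT4 by the deposited table.

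Markers of other cell types moved with some of these lists, and their part in the calls was not tested. Of 10 measured red blood cell markers, 6 had a negative call, against 6.76% of all genes. None was positive in value, and the median was -0.70 at ZT4, -0.50 at ZT12 and otherwise between -0.26 and 0.06. The globin gene Hba-a1 stood at -1.30 ± 0.27 at ZT4 and -0.98 at ZT12, and at -0.14, -0.29, 0.07 and -0.25 at ZT0, ZT8, ZT16 and ZT20. Hbb-bt stood at -1.36 ± 0.29 and Hba-a2 at -1.35 ± 0.29 at ZT4. The globins share sequence, so reads could be split between them. After removal of the trend 7 of the 10 were called, all negative.

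Other marker lists had few calls. Over all genes, 5.49% had a positive call and 6.76% a negative one. Endothelial markers had 2 negative calls of 14 (Cldn5 at -0.75 ± 0.21 and Esam at -0.28 ± 0.09) and fibroblast markers 1 of 14. Macrophage and leukocyte markers had 0 of 14, with a median of -0.27. Of 8 tendon markers 7 had a positive value, none of them called, with a median of 0.30 at ZT4 and between -0.30 and 0.01 at the other ZT, and Scx had a negative call (-0.78). Of 12 T and natural killer cell markers 2 were measured. Cd28 had a positive call (1.42 ± 0.35, adjusted p 0.00255), with values from 1.05 at ZT20 to 2.23 at ZT16 elsewhere. Thy1 was negative in value and not called (-0.24, adjusted p 0.371). Smooth muscle, Schwann cell, neutrophil and satellite cell markers had 0 calls. Muscle fibre markers, which define the tissue, were all 15 measured, with 2 negative calls and a median of -0.16, and Ckm, the muscle creatine kinase, had a mean log2 CPM of 13.9. Of 12 B and plasma cell markers 2 were measured, and Ighm, the immunoglobulin mu chain, stood at -2.07 ± 0.64 (adjusted p 0.0211).

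The genes with the highest values among ZT4 calls, at 1 CPM or more and leaving out predicted gene names, were Otog (2.87 ± 0.50), the synaptotagmin Syt9 (2.45 ± 0.51), Iqgap2 and Mss51 (2.26 ± 0.60). Mss51, a mitochondrial protein of skeletal muscle, stood between 1.06 and 2.54 at the other ZT. They were followed by Rtkn2 (2.18), the spindle factor Tpx2 (1.92), the kinesin Kif26b (1.66), the ATPase Atp13a5 (1.62), the survival factor Bcl2 (1.62) and the matrix protein Npnt (1.59). Of these 10, Tpx2 and Atp13a5 were called at all 6 ZT, and Iqgap2 and Rtkn2 at ZT4 alone.

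At the other end stood Lars2 (-4.63 ± 1.15), the secreted phospholipase Pla2g5 (-3.25 ± 0.39), Cyp4f39 (-2.52), Actc1, Fam174b (-2.21) and Ighm. Next came the lipid transporter Abca4 (-1.99), the replication helicase subunit Mcm6 (-1.91), the pseudogene Rpl13a-ps1 (-1.80) and H19. Pla2g5 was called at all 6 ZT, from -1.70 at ZT20 to -3.25 at ZT4, and so was Mcm6. Fam174b stood at -2.21 ± 0.34 at ZT4 and between -0.40 and -1.41 elsewhere (adjusted p 0.12 for the difference). Rpl13a-ps1 is nearly a copy of Rpl13a, so its value is uncertain.

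The 10 smallest adjusted p at ZT4 belong to predicted genes with a repeat in common. These and 3 like them, grouped after their values were seen, are Gm10715, Gm10717, Gm10718, Gm10719, Gm10720, Gm10721, Gm10722, Gm10800, Gm10801, Gm11168, Gm17535, Gm21738 and Gm26870. Their transcripts in GENCODE M21 (build GRCm38) have a stretch of 30 bases in common, in the sense strand of 12 and the antisense strand of Gm26870, which is shown because reads from the repeat could be counted in several of them, so the 13 values are not independent. The whole stretch is shared, and no part is in capitals.
Satellite-like genes: cagtgtgcatttctcatttttcacgttttt
At ZT4 the deposited values of the 13 ran from -9.43 to -7.20 (median -8.86), and all 13 were called at all 6 ZT, with medians between -8.63 at ZT12 and -10.4 at ZT0. The ZT4 median was thus within the range of the others, and none of the 13 differences was called.

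A second group, also put together after its values were seen, holds 5 genes that are called ribosomal RNA-linked here from background knowledge. Their transcripts were compared here with the mitochondrial ribosomal RNAs mt-Rnr1 and mt-Rnr2 only, and Gm20594 alone had stretches in common with either. No nuclear-encoded ribosomal RNA was searched. Gm26924 was not matched in GENCODE M21 and could not be compared. The 5 were called at ZT4 and ZT12 and nowhere else. Gm26917 stood at -5.54 ± 1.38 at ZT4 and -5.00 at ZT12, AA474408 at -4.89 ± 1.20 and -4.24, Lars2 at -4.63 ± 1.15 and -4.0, Gm26924 at -3.98 ± 1.05 and -3.48, and Gm20594 at -3.16 ± 0.92 and -2.92. At ZT0, ZT8, ZT16 and ZT20 all 5 lay between -0.32 and 0.41. Their derived errors at ZT4 were 0.92 to 1.38, against a median of 0.13 over genes at 1 CPM or more. Lars2 is the mitochondrial leucyl-tRNA synthetase, and whether reads from ribosomal RNA are counted in it was not tested. Lars2 on chromosome 9 and AA474408 on chromosome 7 have 29 stretches of 30 bases in common, and Gm20594 on chromosome 6 has 44 in common with mt-Rnr2, the mitochondrial large ribosomal RNA. One stretch of each pair is shown, because reads from such a stretch could be counted in either gene.
Lars2 and AA474408: aaaagttaccacagggataactggcttgtg
Gm20594 and mt-Rnr2: aaattgacctttcagtgaagaggctgaaat
None of the 5 differences from the mean of the other ZT was called (adjusted p 0.158 to 0.207), a mean that includes ZT12. The ZT4 and ZT12 tables, which also have the trend with transcript length and the negative globin values in common, are the only ones in which these 5 genes were called. How much of the ZT4 calls goes with this was not tested.

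**Figure D4:**
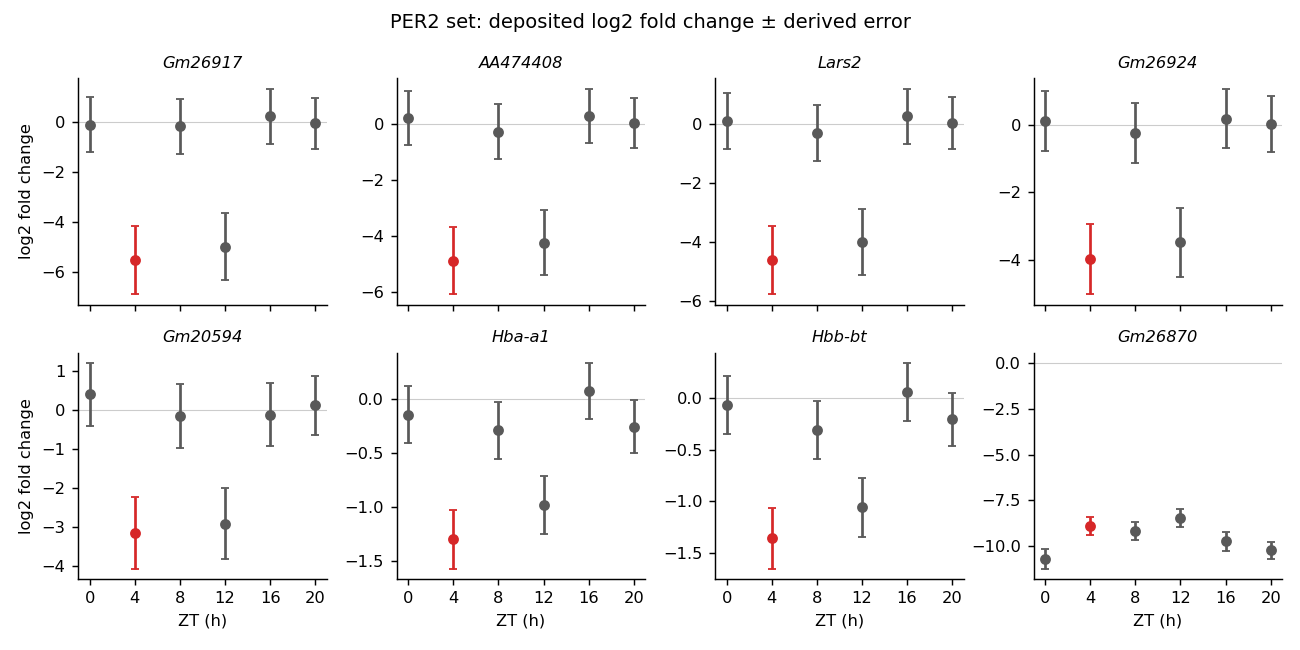
Deposited log2 fold change (vertical axis, own scale in each panel) at each ZT (horizontal axis, h) for the 5 ribosomal RNA-linked genes, 2 globin genes and 1 satellite-like gene, with ZT4 in red and bars of the derived error on either side. The first 5 panels drop to between -5.54 and -2.92 at ZT4 and ZT12 only, the globins are lowest at the same ZT, and Gm26870 stands under -8 throughout.

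The ZT4 calls of PER2 were set beside those of the RORA set at ZT4, where the deposited fold changes are knockout over WT by the labels' sample descriptions and the mice are separate. Of 11328 genes in both, the RORA table called 3597 (31.8%), and 752 were called in both sets, which is 52.8% of the PER2 calls and 20.9% of the RORA calls. Of the genes positive in PER2 among these, 311 were lower and 38 higher in RORA MKO. Of the genes negative in PER2, 344 were higher and 59 lower. In all, 655 of the 752 (87.1%) had opposite deposited signs, against 54.2% of the 7059 genes called in neither set. The share was 92.4% of the 289 genes that were also called at ZT4 with the trend removed. Since the PER2 direction is not stated, these signs can be read as opposite effects of the 2 knockouts or as effects of 1 direction, and the data given here do not say which.

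Mss51 stood at 2.26 in PER2 and fell by 2.17 in RORA MKO (authors' adjusted p 9.5e-37). Npnt stood at 1.59 and fell by 1.96, Cry1 stood at 0.38 and fell by 1.07, and Arntl stood at 0.49 and fell by 1.21. Of the negative genes, Fam174b stood at -2.21 and rose by 1.86, Ighm at -2.07 and rose by 2.79, and Plin3 at -1.26 and rose by 1.45. Car3, a muscle carbonic anhydrase that is also in the white adipocyte list, stood at -1.23 and rose by 1.36. Pla2g5 and Otog did not follow this order: Pla2g5 stood at -3.25 and fell by 2.07, and Otog stood at 2.87 and rose by 1.01. Of the genes whose ZT4 effect differed, Ccs (0.30), Cmtm7 (0.68) and Tmem9 (0.72) rose in RORA MKO, Ddo fell by 0.20, and Tbc1d7 was not called (0.11). Iqgap2, Ankrd1 and Eda2r were not called there (-0.04, -0.07 and 0.08).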

How the data were processed

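RNA-seq was run on mouse muscle. Per the labels' protocols, total RNA was made into stranded mRNA libraries. The submitters' processing notes list DESeq2, R 4.1, STAR, MultiQC, Trimmomatic and bcl2fastq 2.20.0.422, with the builds GRCm39 and mm9 in no stated role. Which counter, strand setting and annotation were used, and which tool made each table, is not given in the sources used here. Per the file headers, the values the authors deposited for PER2 are a likelihood ratio score, its p-value and adjusted p, and 2 values on the log2 scale, the fold change and the mean CPM. The deposited adjusted p equals a recomputed Benjamini-Hochberg value in every table, and the mean log2 CPM is identical in all 6. The deposited RORA table of ZT4 was used for its log2 fold change and adjusted p-value only.

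No values per library were used, so depth, and the precision it gives, are unknown, and the tests set for libraries were replaced by tests on the deposited comparisons. The ZT4 difference was a z test with errors derived from the score. The trend used natural cubic splines (5 degrees of freedom each) of log2 transcript length and GC content, fitted on genes at 1 CPM or more with a size under 2. Transcripts came from GENCODE M21 by symbol (12333 genes, 95.2%, and 1512 of the 1586 calls), used for length, GC content, chromosome and shared 30-mers. That annotation is on another build than those in the notes. Promoter windows came from RefSeq.

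Python 3.11.15, NumPy 2.4.6, pandas 2.3.3, SciPy 1.17.1, patsy 1.0.2, matplotlib 3.10.9, R 4.3.3 and limma 3.58.1 were used. The difference test was tested on simulated data. Named genes were Per2, the measured clock genes, the 10 highest and 10 lowest ZT4 values among calls at 1 CPM or more with no predicted name, the genes called by the difference test within the same limits, up to 3 members of each list with the smallest adjusted p, genes called with the other sign elsewhere, and the 10 smallest adjusted p. The 49 lists (35 of pathways, 14 of cell types), their members and the tests were chosen with earlier results of these data known. Some clock genes that the rule names are not reported here. Lists are described by counts and medians, with no set test.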

Additional observations from a re-analysis of the deposited data

Results flagged for a closer look

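In 5 genes named by the rule the effect at ZT4 differed from the mean effect at the other 5 ZT by the test of the difference itself. The difference was 0.65 for Ddo, -0.56 for Ccs, -0.65 for Tmem9, -0.72 for Tbc1d7 and -1.07 for Cmtm7, in log2 units with the sign as deposited. With the length and GC trend removed, Ddo kept the call (0.62), Ccs came to -0.28 (adjusted p 0.502), and Tmem9, Tbc1d7 and Cmtm7 lost it too. Ddo alone lost the call with an inverse-variance weighted mean (adjusted p 0.0516) and among genes at 1 CPM or more (adjusted p 0.0552). With the spread between the other 5 ZT as error, limma called none of the 5.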

How the results depend on the processing

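The count of 1586 ZT4 calls became 567 at an adjusted p under 0.01, 2725 under 0.1, 662 with a size of at least 0.5 (33.8% positive, against 44.8%) and 640 (51.2% positive) with the length and GC trend removed. It was 1563 when p-values were adjusted again over genes at 1 CPM or more (1543 of the 1586 lie at that level), and 1607 with the median subtracted. The 1195 genes called at ZT4 alone became 486 where an unadjusted p of at least 0.05 was required at the other ZT, and 395 with the trend removed. The 7 genes of the difference test (2135 at an unadjusted p under 0.05) became 12 without ZT8, 10 without ZT12, 5 with an inverse-variance weighted mean, 4 among genes at 1 CPM or more, 1 without ZT20 and 36 (22 positive, 14 negative) with the trend removed, of which 2 were among the 7. The 36 include Nr1d1 (difference 0.83, adjusted p 0.0223), Ankrd1 (1.36, adjusted p 0.0223) and Iqgap2 (3.45, adjusted p 0.0449). The z test gave 0 without ZT0 (1621 at an unadjusted p under 0.05), 0 without ZT16 (1891) and 0 at an adjusted p under 0.01 (2135), and limma with the spread between the other 5 ZT as error gave 0 (1944). The same z test with another ZT in the place of ZT4 gave 5 for ZT0, 1 for ZT8, 0 for ZT12 (499 unadjusted), 0 for ZT16 (535) and 1 for ZT20. The 5 named differences kept their sign in all settings, and lost the call in 25 of 45. With the trend removed 3 list medians changed sign, to -0.0025 for glycogen metabolism, 0.13 for fast sarcomere and 0.12 for slow sarcomere. Where calls were lost the cause was not tested, beyond the smaller number of ZT or genes in a setting. No paired analysis was possible because the tables hold comparisons and no values per library, and for the same reason no replicate could be left out. The depth of the libraries is unknown, so no depth limit can be given.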
